A study of Rattus norvegicus with 14 samples.

Results

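The genes described here are the AP-1 subunit genes Fos, Fosb, Fosl1, Fosl2, Jun, Junb and Jund and the immediate early genes Egr1, Ier2 and Ier3. These 10 genes were listed by name, and 8 of them had a row among the 16816 gene symbols of the count table. Fosb and Fosl2 had no row under these symbols or their RefSeq synonyms and were not analysed here. The 8 measured genes were tested in each comparison, and all 8 passed the filter on low counts.

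The samples were rat PCCL3 cells, a thyroid follicular cell line kept in medium with thyrotropin, insulin and serum. The fusion protein PAX8-PPARG (PPFP) arises from a gene rearrangement in follicular thyroid carcinoma, and a stable transfectant making its human form, tagged N-terminally with 3xMyc, is called PPFP cells below. Cells transfected with the vector alone are called EV cells. Each line was cultured for 16 hours with 1 μM pioglitazone, a ligand of PPARG, or with the DMSO vehicle alone, described below as without pioglitazone, which gave 4 groups of 3 RNA-seq libraries from 3 independent experiments. Each line is 1 transfected line per construct as far as the labels go, so that a difference between the lines cannot be told apart from a difference between independently selected cell populations. A ChIP library of the fusion protein and its input were not used here.

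AP-1 is a family of dimers. Fos family proteins pair with Jun family proteins through a leucine zipper, Jun proteins also pair with each other, and the dimers bind the sequence TGACTCA. Immediate early genes are transcribed shortly after a stimulus without the need for new protein synthesis, and most of their transcripts are short-lived. In thyroid cells thyrotropin acts through cyclic AMP and the factor CREB, which binds TGACGTCA, and growth factors act through the MAP kinases and the serum response factor SRF, which binds the CArG box.

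Promoter sequence is shown for 4 measured members on which the results below turn. Jund and Fosl1 had lower levels in PPFP cells, and Junb and Ier2 varied together between libraries of 1 group. The RefSeq table of build GRCr8 had an entry for 7 of the 10 genes and none for Fos, Jun and Ier3. Each line gives the 250 bases before the annotated start, 5′ to 3′ on the strand of the gene. Capitals mark the full cyclic AMP element TGACGTCA, its 5-base part TGACG on either strand, and the Egr1 site GCGTGGGCG.
Jund: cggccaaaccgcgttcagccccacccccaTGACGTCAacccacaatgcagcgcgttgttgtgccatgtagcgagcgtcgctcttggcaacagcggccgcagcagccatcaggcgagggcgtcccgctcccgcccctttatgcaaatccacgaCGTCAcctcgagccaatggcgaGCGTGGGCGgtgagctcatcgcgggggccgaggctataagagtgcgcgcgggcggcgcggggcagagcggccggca
Junb: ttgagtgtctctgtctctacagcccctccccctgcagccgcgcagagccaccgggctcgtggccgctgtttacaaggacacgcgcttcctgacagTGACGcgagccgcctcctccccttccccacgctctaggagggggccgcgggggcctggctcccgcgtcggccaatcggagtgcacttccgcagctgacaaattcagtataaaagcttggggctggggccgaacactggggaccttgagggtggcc
Fosl1: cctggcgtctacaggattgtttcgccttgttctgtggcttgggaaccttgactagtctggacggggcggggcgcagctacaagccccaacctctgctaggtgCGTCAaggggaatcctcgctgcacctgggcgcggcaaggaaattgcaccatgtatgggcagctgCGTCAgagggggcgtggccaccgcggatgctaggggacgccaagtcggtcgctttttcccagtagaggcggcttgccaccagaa
Ier2: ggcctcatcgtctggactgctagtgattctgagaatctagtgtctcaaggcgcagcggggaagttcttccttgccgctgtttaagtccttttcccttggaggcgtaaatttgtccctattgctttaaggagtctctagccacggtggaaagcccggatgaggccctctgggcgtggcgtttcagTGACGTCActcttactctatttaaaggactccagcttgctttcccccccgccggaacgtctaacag
The Jund promoter lies on the minus strand at chr16:18769772-18770021. The Junb and Ier2 promoters both lie on the plus strand of chromosome 19, at chr19:40080876-40081125 and chr19:40399123-40399372, and the Fosl1 promoter is on the plus strand at chr1:212183635-212183884.

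The full element TGACGTCA stood in the Jund promoter 221 bases before the start and in the Ier2 promoter 66 bases before it, and it occurred in 1.59% of all 33469 promoter pieces of the same length. The shorter TGACG, which is contained in the full element, occurred at 1 position in Junb, at 2 positions each in Fosl1, Egr1 and Ier2, at 3 positions in Jund and in 18.2% of all pieces, with both strands searched, and not in Fosb and Fosl2. Jund also held GCGTGGGCG, 76 bases before its start, a sequence found in 0.478% of all pieces. The CArG box occurred at 2 positions of the Egr1 promoter and in 1.50% of all pieces. The AP-1 sequence TGACTCA, searched on both strands, was in none of the 7 member promoters and in 4.05% of all pieces, which says only that these letters are not in this window. These matches describe the sequence, and no binding was measured at them here.

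The libraries held 23724703 to 35240176 counts each. All 10 thyrocyte markers were detected at a mean of at least 1 CPM, the counts of a gene scaled to a common library total. Of these, 2 were higher and 6 lower in PPFP than in EV cells without pioglitazone, and 2 and 7 with it (edgeR, adjusted p below 0.05). Among all genes 45.2% and 52.7% passed in either direction. The fibroblast genes Col1a2, Col3a1, Dcn and Lum and the macrophage genes Ptprc, Csf1r and Itgam had at most 3 counts in every library. Of these lists, 2 of 6 fibroblast and 1 of 5 macrophage genes had a mean of at least 1 CPM. Libraries held 517 to 938 counts of the fibroblast gene Pdgfra, and 96 to 188 of Cd14 and 13 to 35 of Cd68, both macrophage genes. The summed adipocyte markers differed between the lines, from 0.629 to 3.14 CPM in EV libraries to 18.8 to 19.5 CPM in PPFP libraries without and 53.3 to 73.5 CPM with pioglitazone, although Lep had at most 3 counts throughout. In PPFP cells with against without pioglitazone Plin1 and Cidec rose by 2.68 and 1.46 and Adipoq fell by 0.91 on the log2 scale (adjusted p = 0.000413, 0.00129 and 0.0241). The part of these markers in the results was not tested. Without pioglitazone, Pparg, which the fusion construct contains, averaged 1.60 ± 0.347 CPM in the EV libraries and 54.1 ± 6.82 CPM in those of PPFP cells (SD over 3 libraries), with reads of the rat gene and the human construct not told apart. The PPFP libraries of replicate 1, with and without pioglitazone, stood apart from the other PPFP libraries in several members, and the differences of Fos, Junb, Egr1 and Ier2 that rest on them are given with and without them.

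Without pioglitazone, the members most clearly lower in PPFP cells than in EV cells were Fosl1, encoding the Fos family protein FRA-1, and Jund, encoding the Jun family member that is usually expressed steadily. Jun was lower by a smaller amount. Ier3, an early response gene linked to cell survival, was slightly higher. Fos had a higher mean that did not pass the test. Of the 8 measured members, 4 were called at an adjusted p below 0.05, 3 of them lower, against 45.2% of all 10264 genes tested in either direction and 23.1% in the lower direction. The share of members called was thus close to that of all genes. Levels below are CPM scaled by the trimmed mean of M values (TMM), fold changes are log2 values of PPFP over EV cells with their standard error (SE), and adjusted p-values are from the edgeR quasi-likelihood test over all genes.

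**Figure D1:**
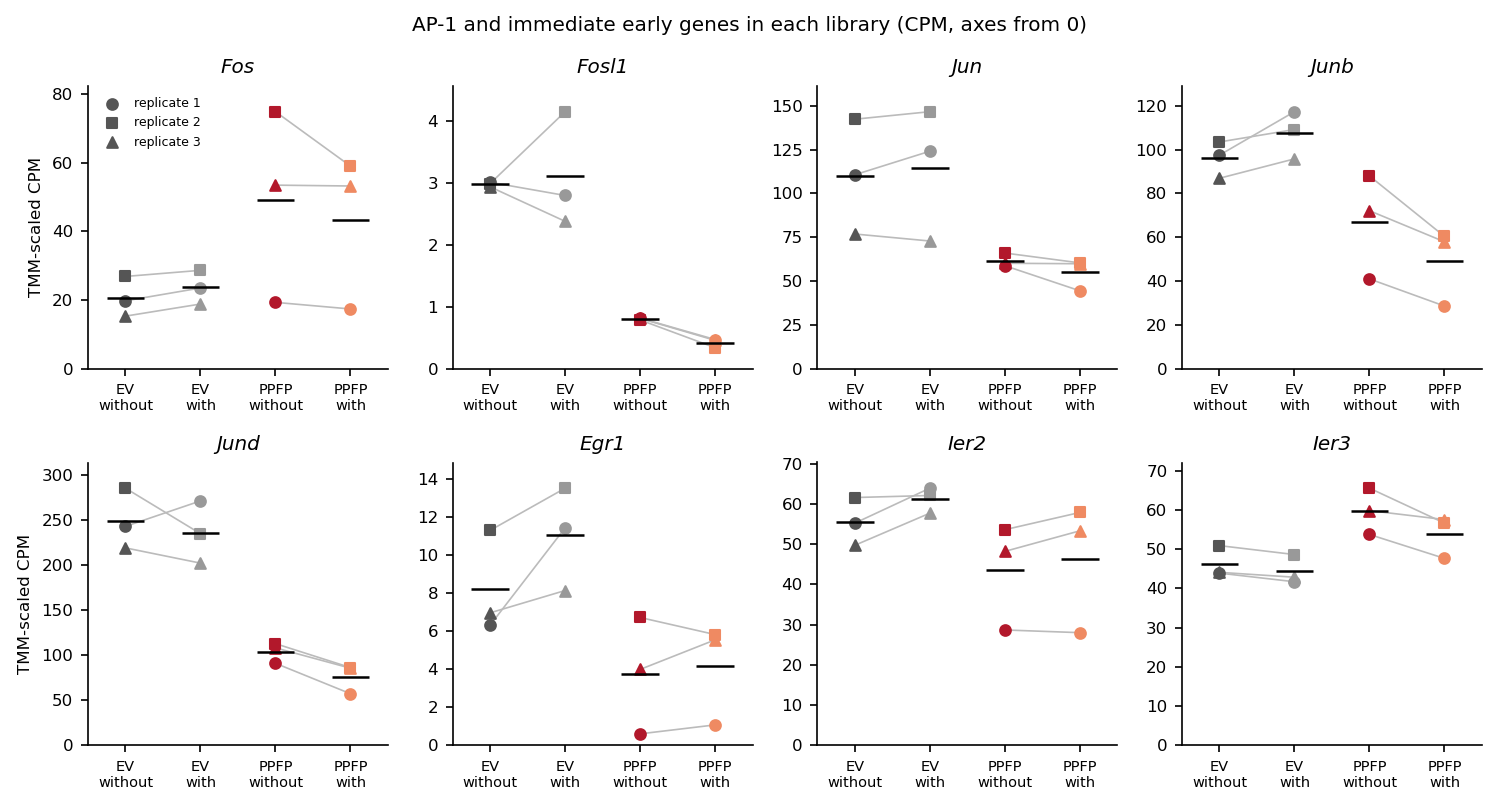
TMM-scaled CPM of the 8 measured AP-1 and immediate early genes in each of the 12 libraries, with linear axes that start at 0 and a separate scale for each gene. Circles, squares and triangles are replicates 1, 2 and 3, grey lines join libraries of the same number within a cell line, and black bars are group means of 3 libraries. Fosl1, Jun and Jund lie lower in every PPFP library than in any EV library, and the PPFP circles lie lowest of their group for Fos, Junb, Egr1 and Ier2.

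Fosl1 was 3.01, 2.99 and 2.93 CPM in the EV libraries and 0.809, 0.784 and 0.814 CPM in the PPFP libraries without pioglitazone. The groups did not overlap, and the replicates of each lay within a few percent of each other. The difference was -1.88 (SE 0.19, adjusted p = 0.000200). The PPFP values rest on 22, 21 and 19 counts, so counting error alone is appreciable for this gene.

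Jund was 243, 285 and 219 CPM in the EV libraries and 90.7, 113 and 108 CPM in the PPFP libraries, again with no overlap, and the difference was -1.26 (SE 0.13, adjusted p = 0.000224). Jun, the partner that forms the most active dimers with Fos, was 111, 142 and 76.8 CPM in the EV libraries and 58.7, 65.9 and 60.1 CPM in the PPFP libraries. The PPFP libraries were closely grouped and lay just below the lowest EV library. The difference was -0.84 (SE 0.20, adjusted p = 0.0122). Fosl1 and Jund also had a fold change above 2, and 14.6% of all genes tested passed both limits. Leaving out any 1 library kept the calls of Fosl1, Jund and Jun.

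Ier3 was 43.9, 50.9 and 44.1 CPM in the EV libraries and 53.8, 65.6 and 59.9 CPM in the PPFP libraries, every PPFP library being above every EV library. The difference was 0.37 (SE 0.11, adjusted p = 0.0257). This call was lost without EV replicate 1 (adjusted p = 0.101), EV replicate 3 (0.0604), PPFP replicate 2 (0.0797) or PPFP replicate 3 (0.0705), and when libraries were scaled by their total alone (log2 fold change 0.29, adjusted p = 0.0770). In all, the CPM of 4 of the 8 members did not overlap between the lines, beside 56.5% of all genes.

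Fos was 19.8, 26.9 and 15.3 CPM in the EV libraries and 19.3, 75.0 and 53.5 CPM in the PPFP libraries. PPFP replicates 2 and 3 were above all EV libraries and replicate 1 was within their range. The difference of 1.26 (SE 0.45) had an adjusted p of 0.0532. Without PPFP replicate 1 it was 1.66 and passed the test (adjusted p = 0.00228). The edgeR exact test also called Fos higher in PPFP cells (adjusted p = 0.0141), as did the fit without a filter on low counts (adjusted p = 0.0476). Without PPFP replicate 2 the difference was 0.84 (adjusted p = 0.159).

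Junb, a Jun family member with weaker activity than Jun in many settings, was 97.5, 104 and 86.9 CPM in the EV libraries and 40.9, 88.0 and 72.1 CPM in the PPFP libraries. The PPFP library of replicate 2 reached the lowest EV value, so the groups overlapped. The difference of -0.52 (SE 0.25) had an adjusted p of 0.127, and without PPFP replicate 2 it was -0.75 and passed the test (adjusted p = 0.0454). Without PPFP replicate 1 it was -0.24 (adjusted p = 0.145).

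Egr1, encoding a zinc finger factor induced by serum and growth factors, was 6.32, 11.3 and 6.96 CPM in the EV libraries and 0.589, 6.72 and 3.98 CPM in the PPFP libraries. The PPFP library of replicate 1 held 16 Egr1 counts and that of replicate 2 held 180. The difference of -1.12 (SE 0.65) had an adjusted p of 0.195. It was -0.58 without PPFP replicate 1 (adjusted p = 0.197) and -1.84 without PPFP replicate 2 (adjusted p = 0.0727). Ier2, encoding a nuclear early response protein, was 55.3, 61.6 and 49.7 CPM in the EV libraries and 28.7, 53.6 and 48.2 CPM in the PPFP libraries, a difference of -0.35 (SE 0.22, adjusted p = 0.228), which was -0.10 without PPFP replicate 1. With the replicate number as a block across the lines, Fos (log2 fold change 1.11, adjusted p = 0.0289) and Egr1 (-1.44, adjusted p = 0.0421) were called in addition, beside 39.5% of all genes. The study ran the samples of each experiment on shared sequencing lanes, but the labels do not say that a number marks the same experiment in both lines. Deviations from group means of same-numbered libraries of both lines had r = -0.28, 0.41 and -0.40 across genes. A block by number may thus not fit this comparison.

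With pioglitazone in both lines, all 3 Jun family genes and Fosl1 were lower in PPFP cells. The lines were the same as without pioglitazone, and within a line libraries of the same replicate number varied together. This comparison shares no library with the one without pioglitazone but is not independent of it. It called 4 of the 8 members, all 4 lower, against 52.7% of all 10291 genes tested in either direction and 26.4% in the lower direction. All 4 also had a fold change above 2, and 19.7% of all genes tested passed both limits. The CPM of 5 members, these 4 and Egr1, did not overlap between the lines, beside 62.9% of all genes.

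**Figure D2:**
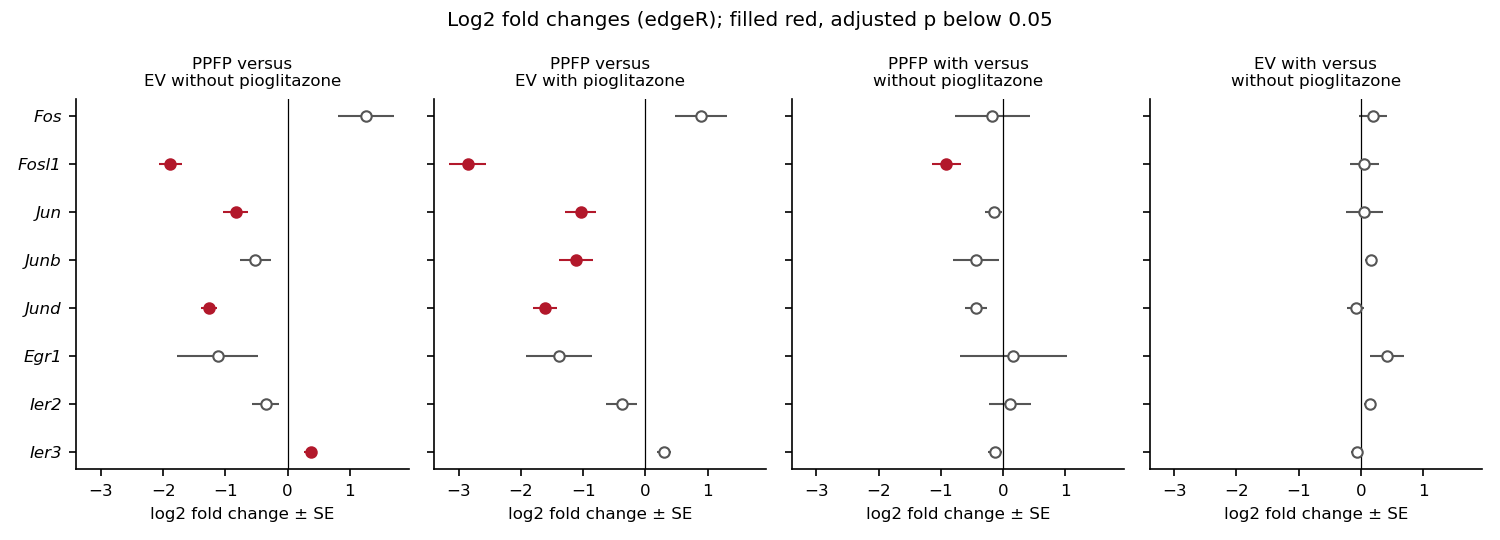
Log2 fold change ± SE of the 8 measured members (edgeR quasi-likelihood test) in 4 panels, 1 for each pairwise comparison of 3 against 3 libraries, on a shared axis. Filled red points have an adjusted p below 0.05 and open grey points do not. Fosl1, Jun and Jund lie left of 0 in both comparisons of PPFP with EV cells, Fosl1 alone is called among the PPFP cells with versus without pioglitazone, and no member is called among the EV cells.

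Fosl1 was 2.79, 4.15 and 2.38 CPM in the EV libraries and 0.454, 0.336 and 0.467 CPM in the PPFP libraries with pioglitazone, from 9 to 14 counts in the latter. The difference was -2.86 (SE 0.30, adjusted p = 0.000225). Jund was 271, 235 and 202 CPM in the EV libraries and 56.9, 86.0 and 85.3 CPM in the PPFP libraries. Its difference was -1.61 (SE 0.19, adjusted p = 0.000369), and no PPFP library came near the EV range.

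Junb was 117, 109 and 95.8 CPM in the EV libraries and 28.5, 60.4 and 57.9 CPM in the PPFP libraries. The groups did not overlap here, and the difference was -1.11 (SE 0.27, adjusted p = 0.0110). Jun was 124, 147 and 72.8 CPM in the EV libraries and 44.4, 60.3 and 59.8 CPM in the PPFP libraries, a difference of -1.04 (SE 0.25, adjusted p = 0.0108). All 4 calls held when any 1 library was left out, but the fold change of Jun was below 2 without EV replicate 2 (-0.83) or PPFP replicate 1 (-0.90), and that of Junb without PPFP replicate 1 (-0.83).

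The other 4 members did not pass the test. Egr1 was 11.4, 13.5 and 8.14 CPM in the EV libraries and 1.06, 5.82 and 5.54 CPM in the PPFP libraries, a difference of -1.39 (SE 0.53, adjusted p = 0.0604). Every PPFP library was below every EV library. Without PPFP replicate 1 the difference was smaller, -0.93, and passed the test (adjusted p = 0.0161), and DESeq2 called Egr1 lower with all libraries (adjusted p = 0.0122). With the replicate number as a block Egr1 was also called (-1.58, adjusted p = 0.0446), beside 44.2% of all genes. Here too same-numbered libraries of both lines did not all deviate together (r = -0.27, 0.32 and -0.47).

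Fos was 23.5, 28.7 and 18.8 CPM in the EV libraries and 17.4, 59.1 and 53.3 CPM in the PPFP libraries. As without pioglitazone, PPFP replicates 2 and 3 were above all EV libraries, and replicate 1 was here below them all. The difference was 0.89 (SE 0.42, adjusted p = 0.112), and without PPFP replicate 1 it was 1.27 (adjusted p = 0.00153). DESeq2 called Fos with all libraries (adjusted p = 0.0447), and also Ier3 (adjusted p = 0.0455). Ier3 differed by 0.30 (SE 0.11, adjusted p = 0.0513), with adjusted p-values of 0.0129 without PPFP replicate 1 and 0.0402 without EV replicate 2. Ier2 was 64.0, 62.1 and 57.7 CPM in the EV libraries and 28.0, 57.9 and 53.3 CPM in the PPFP libraries, a difference of -0.38 (SE 0.25, adjusted p = 0.238), which was -0.11 without PPFP replicate 1. Without PPFP replicate 1, in all, 7 members were called in this comparison, beside 48.7% of all genes.

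The balance between Fos and its Jun partners was also described as the ratio of read counts within each library, which does not depend on how libraries are scaled. These ratios were chosen after the levels were seen, and they compare reads, not levels per length. Fos reads per Jund read were 0.0814, 0.0942 and 0.0699 in EV cells and 0.213, 0.666 and 0.496 in PPFP cells without pioglitazone. With pioglitazone they were 0.0867, 0.122 and 0.0932 in EV cells and 0.305, 0.687 and 0.625 in PPFP cells. Every PPFP library, replicate 1 included, was above every EV library.

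**Figure D3:**
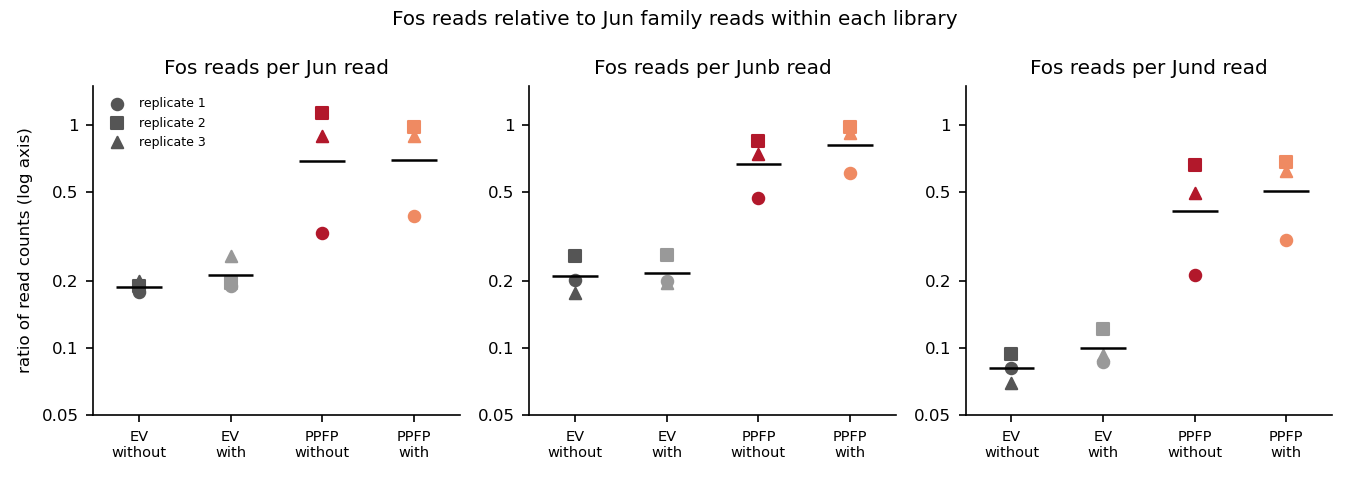
Fos reads per Jun, Junb or Jund read within each of the 12 libraries, on log axes, by group. Circles, squares and triangles are replicates 1, 2 and 3, and black bars are geometric means of 3 libraries. For each of the 3 ratios all 6 PPFP libraries lie above all 6 EV libraries, with the PPFP circles lowest among the PPFP points.

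The geometric mean of Fos reads per Jund read was 5.08-fold higher in PPFP than in EV cells without pioglitazone and 5.10-fold higher with it. Fos reads per Jun read were 3.67-fold and 3.29-fold higher, from geometric means of 0.189 and 0.212 in EV cells to 0.693 and 0.699 in PPFP cells. Fos reads per Junb read were 3.18-fold and 3.76-fold higher. Without the PPFP replicate 1 libraries these folds were 7.08 and 6.58 per Jund read, 5.33 and 4.40 per Jun read and 3.79 and 4.36 per Junb read. Fosl1 reads per Jund read, the remaining ratio examined, were lower in PPFP cells, 0.646 times the EV value without and 0.430 times with pioglitazone. Each of these comparisons of the lines gave p = 0.1 in an exact permutation test (two-sided), which is the smallest p that 3 against 3 libraries allow, and 0.2 after Benjamini-Hochberg adjustment over the 16 tests. Between PPFP cells with and without pioglitazone all 4 ratios overlapped.

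In PPFP cells, pioglitazone went with a lower level of Fosl1. Of the 8 members, this 1 was called, against 14.8% of all 10064 genes tested. Fosl1 was 0.809, 0.784 and 0.814 CPM without and 0.454, 0.336 and 0.467 CPM with pioglitazone. The groups did not overlap, and the difference was -0.91 (SE 0.23, adjusted p = 0.0467). The call rests on 62 counts against 35 over the 3 libraries of each group, and leaving out any 1 of the 6 libraries lost it (adjusted p = 0.0706 without PPFP replicate 1 without pioglitazone, 0.0855 without replicate 1 with pioglitazone, 0.119 and 0.169 without replicate 2, and 0.154 and 0.114 without replicate 3).

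Jund was 90.7, 113 and 108 CPM without and 56.9, 86.0 and 85.3 CPM with pioglitazone, again without overlap. The difference was -0.43 (SE 0.18, adjusted p = 0.174). The CPM of 2 members, Fosl1 and Jund, did not overlap between these groups, beside 34.4% of all genes. Junb was 40.9, 88.0 and 72.1 CPM without and 28.5, 60.4 and 57.9 CPM with pioglitazone, and its difference of -0.44 (SE 0.37) had an adjusted p of 0.506. When 1 library was left out, the difference ranged from -0.72 to -0.18 for Junb, both ends being fits without 1 of the replicate 1 libraries, and from -0.54 to -0.27 for Jund.

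Libraries of the same replicate number varied together within a cell line, so the response to pioglitazone was also fitted with the replicate number as a block. In PPFP cells this pairing rests on replicate 1, since the differences between replicates 2 and 3 with and without pioglitazone had r = -0.02 across 9638 genes. Within these pairs Junb was lower with pioglitazone by 0.52, 0.54 and 0.32 on the log2 scale, and Jund by 0.67, 0.39 and 0.34. With the block, 6 of the 8 members were called, all 6 lower, against 51.6% of all genes in either direction and 23.9% in the lower direction. Junb changed by -0.44 (SE 0.05, adjusted p = 9.31e-08) and Jund by -0.45 (SE 0.05, adjusted p = 1.19e-07). Fosl1 changed by -0.92 (SE 0.30, adjusted p = 0.0137).

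The other blocked calls were small. Fos differed by -0.15, -0.34 and -0.0068 in the 3 pairs and changed by -0.16 (SE 0.06, adjusted p = 0.0215), Jun by -0.16 (SE 0.06, adjusted p = 0.0207) and Ier3 by -0.14 (SE 0.05, adjusted p = 0.0190). Egr1 and Ier2 were not called, with differences of 0.18 (SE 0.15, adjusted p = 0.327) and 0.10 (SE 0.05, adjusted p = 0.121). Without both replicate 1 libraries, an alternative chosen after seeing the data, the blocked fit called 5 members lower, with Jun at -0.07 (adjusted p = 0.281) no longer among them. Without those libraries and without the block 4 members were called, Junb at -0.45 (adjusted p = 6.89e-05) among them, while Fos was at -0.21 (0.107), Egr1 at 0.06 (0.798) and Ier2 at 0.12 (0.108). Both fits called 47.6% of all genes.

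In EV cells, which have little Pparg, no member was called by the edgeR quasi-likelihood test, and 0.0% of all 10146 genes were. None of the 8 had an unadjusted p below 0.05, as had 0.158% of all genes, and DESeq2 and the edgeR exact test also called 0 members. Fosl1 with 1 pair higher and Jund with 1 pair higher showed no common direction. Fos was higher with pioglitazone in all 3 pairs, by 0.25, 0.09 and 0.30 on the log2 scale, and so were Junb, by 0.27, 0.08 and 0.14, Egr1 and Ier2. Ier3 was lower in all 3 pairs, at -0.07, -0.07 and -0.04. The share of all genes with the same direction in all 3 pairs is not given here, so these directions only describe the members.

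With the replicate block no member was called in EV cells either, beside 0.00986% of all genes. Junb, Egr1, Fos and Ier2 had unadjusted p-values of 0.00493, 0.00594, 0.00695 and 0.0168, and 5.96% of all genes had one below 0.05, but their adjusted p-values were 0.645 to 0.742. These 4 genes varied together between libraries, as described below, and are not 4 independent observations.

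Whether the response to pioglitazone differed between the lines was tested as an interaction over all 12 libraries. No member was called by the edgeR quasi-likelihood test, against 2.64% of all 10482 genes. Only Fosl1 passed 0.05 before adjustment in the edgeR fit over all genes, with a difference of -0.99 (SE 0.34, adjusted p = 0.188), and DESeq2 called 0 members. With replicate blocks within each cell line, 4 members were called, against 34.3% of all genes. Junb differed by -0.62 (SE 0.07, adjusted p = 1.48e-05), having fallen in all 3 PPFP pairs and been higher in all 3 EV pairs. Fos differed by -0.38 (SE 0.09, adjusted p = 0.00613), Jund by -0.38 (SE 0.10, adjusted p = 0.0104) and Fosl1 by -0.98 (SE 0.36, adjusted p = 0.0498). Without both PPFP replicate 1 libraries the blocked fit called 3 of them, beside 30.4% of all genes: Junb at -0.59, Fos at -0.39 and Jund at -0.28. Fosl1 was at -1.03 (adjusted p = 0.101), Egr1 at -0.35 and Ier2 at -0.02.

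Fos, Junb, Egr1 and Ier2 varied more between PPFP libraries than most genes did. The highest over the lowest Egr1 level was 11.4 among the PPFP libraries without and 5.49 with pioglitazone, and 99.9% and 99.8% of all genes had a smaller ratio. It was 1.79 and 1.66 among the EV libraries, where 92.4% and 88.2% of genes had a smaller ratio. For Fos the ratio was 3.88 and 3.40 in PPFP cells and 1.76 and 1.52 in EV cells. The median ratio of all genes was 1.17 and 1.16 in PPFP cells and 1.21 and 1.22 in EV cells. Jun went the other way, with ratios of 1.12 and 1.36 in PPFP cells and 1.85 and 2.01 in EV cells. Each ratio comes from 3 libraries, and the difference in spread was not tested. Between PPFP replicates 2 and 3 alone, the Egr1 ratio was 1.69 without and 1.05 with pioglitazone and the Fos ratio 1.40 and 1.11, beside medians of 1.05 and 1.03 over all genes, so most of the spread lay between replicate 1 and the others.

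**Figure D4:**
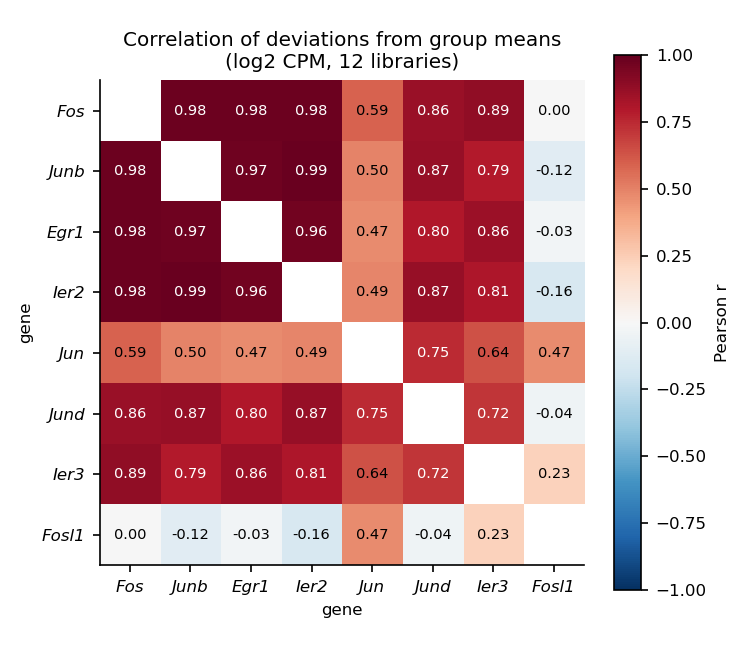
Pearson r of the deviations of log2 CPM from the 4 group means over 12 libraries, for each pair of the 8 measured members. Both axes list the genes and the colour scale runs from -1 to 1. Fos, Junb, Egr1 and Ier2 form a block with r between 0.96 and 0.99, and Fosl1 has r between -0.16 and 0.47 with the others.

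These 4 genes deviated together. Over the 12 libraries, with group means taken out, r was 0.98 between Fos and Junb, 0.98 between Fos and Egr1, 0.98 between Fos and Ier2 and 0.99 between Junb and Ier2. Jund followed Ier2 with r = 0.87 and Ier3 followed Fos with r = 0.89. Jun was looser, with r = 0.59 to Fos, and Fosl1 showed none of it, with r = -0.0040 to Fos and -0.16 to Ier2. The points share libraries, replicate experiments and 3 libraries a group, and many genes lay on the same axis: the 99th percentile of r to Fos over all 9638 genes was 0.95. Over the 10 libraries other than PPFP replicate 1, r among Fos, Junb, Egr1 and Ier2 was lower, from 0.79 to 0.91. Jun then followed Fos with r = 0.89, and Fosl1 had r = 0.40 to Fos.

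Across the 12 libraries with group differences left in, the order was another. Egr1 and Ier2 were closest among the members (r = 0.97), followed by Fosl1 and Jund (r = 0.95) and by Jun and Jund (r = 0.91), while Fos had r = -0.37 to Jund and 0.86 to Ier3. Without the PPFP replicate 1 libraries these values were 0.85, 0.97, 0.87, -0.85 and 0.95. The genes of the table most like each member by the same measure were Hcfc1r1 (r = 0.993) and Cst3 (0.993) for Fosl1, Polm (0.995) and Sdc4 (0.995) for Jund, Uap1l1 (0.983) and Zfp629 (0.979) for Jun, and Runx2 (0.979) and Hdac5 (0.979) for Junb. Fos was most like Ypel3 (0.981) and Abcg3l3 (0.956). Egr1 was most like Cep120 (0.982) and Dusp1 (0.974), the latter a phosphatase of MAP kinases and itself an immediate early gene. Ier2 was most like Sesn2 (0.978) and Slc1a4 (0.976), and Ier3 like Crtap (0.967) and Phf21b (0.959).

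By deviations from group means, the closest genes were Fndc5 (r = 0.992) and RT1-M3-1 (0.985) for Fos, Flrt1 (0.991) and Ier2 (0.991) for Junb, and Junb (0.991) and Cyr61 (0.986), an SRF-dependent early gene, for Ier2. They were Ulk3 (0.980) and Men1 (0.979) for Egr1, Dcaf8 (0.984) and Slc4a1ap (0.984) for Jun, and Pex11g (0.958) and Gpcpd1 (0.956) for Jund. For Ier3 they were LOC246295 (0.967) and Trak1 (0.964), and for Fosl1 Arhgap25 (0.899) and Pusl1 (0.898). Each is a description over 12 libraries, the PPFP replicate 1 libraries included, and no such search without them is given here. Without them r between Junb and Ier2 was 0.90. The 99th percentile of r over all 9638 genes was 0.865 (Fos) to 0.981 (Jund) with group differences left in. By deviations from group means it was 0.756 (Fosl1) to 0.954 (Fos).

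Lists of related genes gave the surroundings of the members. Of 17 tested genes for AP-1 dimer partners and related leucine zipper factors, 3 rose and 3 fell in PPFP against EV cells without pioglitazone, and the median log2 fold change was -0.04, beside 0.00 for all genes. For this and the next 3 lists, 45.2% of all genes were called in either direction and 23.1% lower. Batf, which pairs with Jun proteins and lacks a transactivation domain, had 1 to 9 counts in EV libraries and 19 to 23 in PPFP libraries and rose by 2.52 (SE 0.58, adjusted p = 0.00940), with a range of 2.07 to 3.85 when 1 library was left out, the highest without EV replicate 3. Atf3, a stress-induced partner of Jun proteins, fell by 2.05 on the log2 scale (SE 0.53, adjusted p = 0.0163). Atf7 rose by 0.49 (adjusted p = 0.0473) and Creb1 fell by 0.39 (adjusted p = 0.0323). Atf7 lost its call without EV replicate 1 or 3 or PPFP replicate 2 or 3 (adjusted p up to 0.126), and Creb1 lost it without any library but EV replicate 3 (adjusted p up to 0.0879). The number of partners called was 3 without EV replicate 1 and 2 without PPFP replicate 3, in place of 6.

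**Figure D5:**
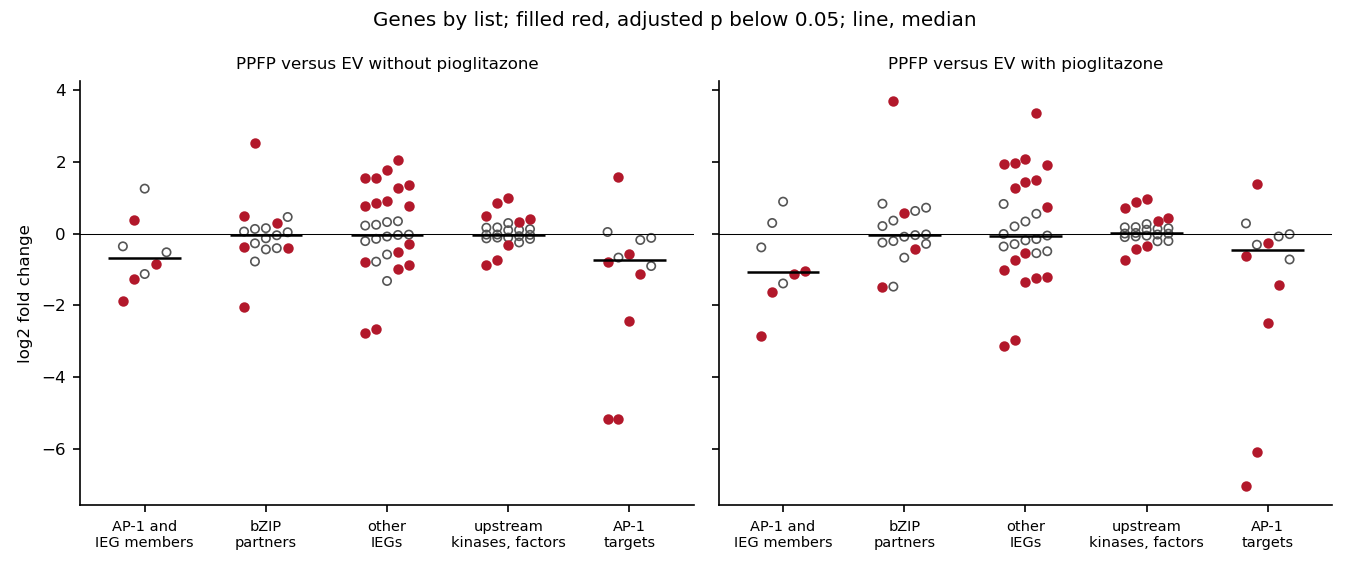
Log2 fold changes of PPFP against EV cells without (left) and with (right) pioglitazone for the 8 measured members and the tested genes of 4 lists of related genes. Each point is a gene, filled red where the adjusted p is below 0.05, and black lines are list medians. The members and the AP-1 targets have medians below 0 in both panels, while the medians of the other 3 lists lie between -0.05 and 0.02. The Mmp9 point is a fitted value of a gene with 0 or 1 counts in PPFP libraries and is no bound.

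Among 29 tested immediate early genes other than the members, 10 rose and 7 fell. Plk3, a stress-responsive kinase, rose by 2.06 (SE 0.15, adjusted p = 4.23e-05) and Sgk1, a kinase induced by serum and glucocorticoid, rose by 1.79 (SE 0.15, adjusted p = 8.45e-05). Ier5l fell by 2.76 on the log2 scale (SE 0.16, adjusted p = 1.87e-05) and Ctgf, a target of SRF and YAP, fell by 2.66 (SE 0.18, adjusted p = 2.87e-05).

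Of 23 tested kinases and factors upstream, 5 rose and 3 fell. Map2k2, the MAP kinase kinase MEK2, rose by 0.99 (SE 0.08, adjusted p = 8.45e-05) and Elk3, a ternary complex factor that works with SRF, rose by 0.86 (SE 0.09, adjusted p = 0.000301). Srf, which is also counted among the immediate early genes, fell by 0.88 on the log2 scale (SE 0.18, adjusted p = 0.00637), and Egfr, the receptor of epidermal growth factor, fell by 0.72 (SE 0.17, adjusted p = 0.00970).

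Among 12 tested genes known as AP-1 targets, 1 rose and 6 fell. The median was -0.73, also with Mmp9 at its bound. With at least 10 counts required in every library, 8 targets were tested, of which 1 rose and 4 fell with a median of -0.62, beside 42.8% of all genes called. Mmp9 and Spp1 were not among these 8. Spp1, encoding osteopontin, had 219 to 282 counts in EV libraries and 5 to 7 in PPFP libraries and fell by 5.18 on the log2 scale (SE 0.24, adjusted p = 7.30e-06). Mmp9, a gelatinase, had 55 counts over the EV libraries and 1 over the PPFP libraries (adjusted p = 0.00515). Hbegf, a ligand of the epidermal growth factor receptor, rose by 1.57 (SE 0.12, adjusted p = 6.21e-05).

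With pioglitazone in both lines, the counts of the same lists were 2 risen and 2 fallen of 17 partners, 9 and 8 of 29 early genes, 5 and 3 of 23 upstream genes and 1 and 6 of 12 targets, beside 52.7% of all genes in either direction and 26.4% lower. Plk3 rose by 3.36 (SE 0.14, adjusted p = 5.00e-06) and Gadd45g, a growth arrest gene, by 2.07 (SE 0.13, adjusted p = 2.16e-05). Ctgf fell by 3.13 on the log2 scale (SE 0.22) and Ier5l by 2.97 (SE 0.18). Of the partners, Atf1 rose by 0.58 (SE 0.06, adjusted p = 0.000290), Batf had 2 to 4 counts in EV and 34 to 42 in PPFP libraries (adjusted p = 6.75e-05), Maf fell by 1.50 (SE 0.29, adjusted p = 0.00422) and Mafg fell by 0.43 (SE 0.13, adjusted p = 0.0296). Mafg lost its call without replicate 1 or 2 of either line (adjusted p up to 0.0838). In place of 4, the number of partners called was 7 without EV replicate 3, with DESeq2, with library size alone or without a filter on low counts, and 8 in 1 fit over all 12 libraries.

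Upstream, Map2k2 rose by 0.97 (SE 0.07), Map2k1 rose by 0.89 (SE 0.10), Srf fell by 0.72 on the log2 scale (SE 0.18) and Mapk3, encoding ERK1, fell by 0.43 (SE 0.12, adjusted p = 0.0205). Mapk3 lost its call without EV replicate 1 or PPFP replicate 2 or 3 (adjusted p up to 0.0595). Hbegf rose by 1.38 (SE 0.14) and Spp1 fell by 6.07 on the log2 scale (SE 0.42). Mmp9 had 53 counts over the EV libraries and 0 over the PPFP libraries, which puts it at least 15.2-fold lower in PPFP cells, computed against 3 counts over the group.

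In PPFP cells with against without pioglitazone, 3 partners rose and 1 fell, 4 other early genes rose and 5 fell, 2 upstream genes rose and 1 fell, and of 11 tested targets 1 rose and 1 fell. With the replicate block these counts were 8 and 2, 10 and 12, 4 and 3, and 2 and 3, when 51.6% of all genes were called in place of 14.8%. Plk3 rose by 1.21 (SE 0.12, adjusted p = 0.00205), Ier5 fell by 0.45 on the log2 scale (SE 0.07, adjusted p = 0.00695) and Ccnd1, the cyclin D1 gene, rose by 0.33 (SE 0.04, adjusted p = 0.00389). These 3 kept their calls without any 1 library, but Ccnd1 lost its call in 1 fit over all 12 libraries. That fit called 0 of 13 targets, 1 of 18 partners and 1156 of all 10451 genes. Without replicate 3 of the PPFP cells cultured without pioglitazone, the number called was 0 of the partners, 5 of the other early genes, 1 of the upstream genes and 1 of the targets, and without replicate 2 with pioglitazone it was 1, 4, 0 and 1. Without replicate 3 with pioglitazone it was 1, 5, 1 and 1, without replicate 2 without pioglitazone it was 1 of the partners and 1 of the targets, and without replicate 1 with pioglitazone it was 2 of the partners. The other 9 genes named by the rule lost theirs in at least 1 such fit, with adjusted p-values of 0.0506 to 0.145: Batf (0.82), Maff (0.88), Gadd45g (0.69), Egfr (0.64) and Map2k1 (0.38), which were higher with pioglitazone, and Maf (-1.10), Ptgs2 (-0.81), Mapk3 (-0.37) and Mmp14 (-0.31), which were lower. In EV cells with against without pioglitazone 0 of the 80 tested genes of these 4 lists were called by the edgeR quasi-likelihood test, the exact test or DESeq2, and 0 had an unadjusted p below 0.05 in the first of these.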

How the data were processed

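RNA was sequenced from 12 cultures, paired-end, and the authors aligned the reads to rat genome build rn4 with TopHat2 2.0.11 and counted them per gene with HTSeq 0.6.1p1 in intersection-strict mode. The deposited values are raw counts per gene symbol. The annotation and the strand setting of the counting are not given in the sources used here, and the library kit does not mark strand, so overlapping and antisense genes cannot be told apart. Peak lists of the ChIP library were not used, because no annotation of build rn4 was at hand.

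Low counts were removed by filterByExpr, and libraries were scaled by TMM. Comparisons used the quasi-likelihood test of edgeR 4.0.16 (R 4.3.3), fitted to the libraries of each comparison, with Benjamini-Hochberg adjustment over all genes tested and calls at an adjusted p below 0.05. CPM values for display used TMM factors over the 12 libraries, 0.925 to 1.05, and log2 CPM a prior count of 2. All columns of the table were mapped to samples. Depth was 23724703 to 35240176 counts per library. The main fit was run on simulated counts with known changes, for PPFP against EV cells without pioglitazone and for the difference between the lines. Those counts held no replicate structure, and the alternative fits were not tested in this way. Alternatives were the edgeR exact test, DESeq2 1.42.0, other size factors and filters, 1 fit over all groups, a replicate block and leaving out each library. Deviations from group means of libraries with the same replicate number correlated across genes within a line (r = 0.84, 0.61 and 0.57 in PPFP cells, 0.64, 0.82 and 0.87 in EV cells), which was taken as pairing. Among PPFP cells, libraries numbered 2 and 3 correlated as well with each other's number (0.68 and 0.49). Between the lines 2 of the 3 correlations were below 0 without pioglitazone (-0.28, 0.41 and -0.40) and with it (-0.27, 0.32 and -0.47). Blocked values between the lines are therefore given only where they change a member's call. Those calls rest on a pairing that these correlations do not show. The pairing within a line comes from the data, as the labels give numbers alone. The methods of the study call the replicates independent experiments, and p-values of the fits without a block measure the spread between them. With a block, p-values measure only the spread left after differences between replicate numbers are taken out. In the comparisons of pioglitazone, the fitted coefficient of variation between libraries then fell from 0.126 to 0.0365 in PPFP cells. In EV cells it fell from 0.156 to 0.0372.

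The members and lists were chosen with earlier results of these data known. From the lists, the text names per comparison the 2 called genes with the largest rise and the 2 with the largest fall, and for each member the 2 genes of highest correlation among those with a mean of at least 1 CPM. Csrnp1 was named after its values were seen. Promoter pieces are from RefSeq, build GRCr8, matched by symbol. Permutation tests used scipy 1.17.1 and figures matplotlib 3.10.9.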

Additional observations from a re-analysis of the deposited data

Results flagged for a closer look

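The response to pioglitazone differed between the lines for 3 of 30 tested early genes other than the members, by the edgeR interaction test, beside 2.64% of all genes: Plk3 by 1.29 (adjusted p = 0.00333), Gadd45g by 0.78 (adjusted p = 0.0383) and Csrnp1 by 0.63 (adjusted p = 0.0332), all more upward in PPFP cells. Gadd45g lost this call in 9 of 12 fits that left out 1 library, with adjusted p-values of up to 0.110, Csrnp1 lost it in 8, with adjusted p-values of up to 0.102, and Plk3 in none. The number of these genes called was 1 without EV replicate 2 or PPFP replicate 3 without pioglitazone, and without EV replicate 1, PPFP replicate 2 or PPFP replicate 3 with pioglitazone. With replicate blocks within each line 17 of the 30 were called, beside 34.3% of all genes. The same fit called 6 of 18 partners, 5 of 23 upstream genes and 2 of 13 targets. Among the members, the difference passed the test only in the fit with replicate blocks within each line, which called 34.3% of all genes, for Junb (-0.62), Fos (-0.38), Jund (-0.38) and Fosl1 (-0.98). Junb and Fos were lower with pioglitazone in all 3 PPFP pairs and higher in all 3 EV pairs, the Fos difference being -0.0068 in the PPFP pair of replicate 3. The share of all genes with such a pattern of pairs is not given here.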

How the results depend on the processing

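Of 341 values of members under settings that kept every group whole or left out both PPFP replicate 1 libraries, 305 stayed on their side of the threshold, 5 lost and 31 gained a call, and 0 reversed. The causes were not tested. In PPFP against EV cells the number of members called was 3 to 6 without pioglitazone, in place of 4. With pioglitazone it was 7 with DESeq2 and 4 to 7 when 1 library was left out, in place of 4. It was 3 of 7 tested with at least 10 counts in every library, where Fosl1 was not tested, 4 with RLE size factors and 5 in each of the other settings. In PPFP cells with against without pioglitazone it was 1, and it was 0 with the exact test, DESeq2, no filter, 1 fit over all 12 libraries or any 1 library left out (0 to 0), and also with at least 10 counts in every library, where Fosl1 was not tested. With the replicate block it was 6, and without both PPFP replicate 1 libraries, a setting chosen after seeing the data, 4 without and 5 with the block. For the difference between the lines it was 0, and 4 with replicate blocks within each line, or 3 without both PPFP replicate 1 libraries. It was 0 in EV cells under every setting run.

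The number of all genes called in PPFP cells with against without pioglitazone was 1486, against 5198 with the replicate block and 632 at the lowest without 1 library. For the difference between the lines it was 277, against 601 with DESeq2, 3594 with blocks within each line and 124 at the lowest without 1 library, and in EV cells it was 0 against 1 with the block. Between the lines, same-numbered libraries did not all deviate together. A replicate block there called 4050 genes in place of 4635 without and 4545 in place of 5425 with pioglitazone, and 6 and 5 members in place of 4 and 4. It changed no call of a member beyond those of Fos and Egr1.

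When 1 library was left out, log2 fold changes of some members not called with all libraries reversed. In PPFP cells with against without pioglitazone they ranged from -0.58 to 0.25 for Fos, -0.37 to 0.88 for Egr1 and -0.14 to 0.36 for Ier2. In EV cells they ranged from -0.20 to 0.20 for Fosl1, -0.16 to 0.29 for Jun, -0.19 to 0.021 for Jund and -0.13 to 0.0029 for Ier3. The difference between the lines ranged from -0.77 to 0.058 for Fos, -0.80 to 0.46 for Egr1 and -0.27 to 0.21 for Ier2. Scaling by library totals alone moved the median of all genes in PPFP against EV cells with pioglitazone from 0.01 to -0.12. Low counts limit Fosl1, Batf, Spp1 and Mmp9. Another threshold on ChIP peaks and another distance to the start site were not run.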
